A study of Mus musculus with 9 samples.

Results

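The enzymes of glycolysis, glycogen turnover, the pentose phosphate pathway and the tricarboxylic acid (TCA) cycle were followed in BV2 cells, an immortalized mouse microglial line, by RNA sequencing. The set was a list of 47 gene symbols, with no threshold on a measured value, but chosen with earlier results of these data known. It stood in 48 rows of the expression table because Aldoa was listed at 2 loci, out of 54532 gene rows. Of these 48 rows, 46 were expressed highly enough to be tested, among 16123 genes tested in all. The remaining 2, Eno2 and Pygl, held at most 2 reads and 0 reads in any library.

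The study asked how oxygen-glucose deprivation (OGD), a cell model of hypoxic-ischemic injury, alters microglia, and what an inhibitor of the acetyltransferases EP300 and CREBBP, A-485, changes under deprivation. Control cells (Ctrl) were kept in complete medium with 10% fetal bovine serum, OGD cells in low-glucose medium with 4% serum in a chamber at 4% oxygen, and the third group under the same deprivation with A-485 added (OGD + A-485). The OGD time of 24 h and the A-485 dose of 50 μM are those the study states for the experiments leading up to the sequencing. There were 3 libraries per group, and 9 in all, with between 12593250 and 16091038 reads on genes. All groups share the BV2 line, no group received A-485 without OGD, and OGD differs from control in medium, serum and oxygen together. The sample labels do not say whether libraries of a group came from separate cultures, so the p-values measure the spread between these libraries only. As RNA of whole cultures was sequenced, fewer cells of a kind and less RNA per cell cannot be told apart.

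Glycolysis splits glucose into pyruvate and yields ATP without oxygen, and the flow through it is set mainly at hexokinase, phosphofructokinase and pyruvate kinase. The pentose phosphate pathway branches off at glucose 6-phosphate, makes NADPH in its oxidative arm and ribose for nucleotides in its non-oxidative arm, while the TCA cycle oxidizes the carbon of pyruvate in mitochondria. Many glycolytic genes are known targets of the hypoxia-inducible factors (HIF), and activated microglia and macrophages are known for a shift towards glycolysis and for turning the TCA intermediate aconitate into itaconate.

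The windows just upstream of transcription start were examined for the core letters of the HIF response element, ACGTG and GCGTG, on both strands; ACGTG also lies within the E-box CACGTG, which other factors bind. The sequences come from RefSeq on mouse build GRCm38, and 45 of the 47 symbols had an entry, with 65 windows of 250 bases in all. Shown are 6 windows, those of the enzymes on which the results below turn. In each, the 250 bases run 5′ to 3′ in the direction of transcription, and capitals mark a match on either strand, so that ACGTG on the other strand appears as CACGT. Gys1 lies at chr7:45434589-45434838 (+), Gbe1 at chr16:70313699-70313948 (+), Pgk1 at chrX:106186850-106187099 (+), Pfkp at chr13:6648772-6649021 (-), Acod1 at chr14:103046762-103047011 (+) and Me1 at chr9:86695915-86696164 (-).
Gys1: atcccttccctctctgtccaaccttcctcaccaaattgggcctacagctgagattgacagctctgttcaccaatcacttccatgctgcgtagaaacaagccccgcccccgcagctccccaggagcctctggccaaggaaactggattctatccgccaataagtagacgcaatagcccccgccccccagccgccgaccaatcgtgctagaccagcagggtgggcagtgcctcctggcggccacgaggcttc
Gbe1: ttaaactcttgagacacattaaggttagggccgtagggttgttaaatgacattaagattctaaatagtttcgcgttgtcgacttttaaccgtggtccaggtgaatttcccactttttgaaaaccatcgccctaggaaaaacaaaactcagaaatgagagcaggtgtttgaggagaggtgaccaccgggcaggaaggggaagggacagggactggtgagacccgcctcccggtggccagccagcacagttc
Pgk1: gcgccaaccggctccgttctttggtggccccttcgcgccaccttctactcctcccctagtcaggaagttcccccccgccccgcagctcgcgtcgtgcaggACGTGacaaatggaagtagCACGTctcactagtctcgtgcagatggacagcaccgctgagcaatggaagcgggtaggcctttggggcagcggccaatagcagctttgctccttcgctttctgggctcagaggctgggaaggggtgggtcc
Pfkp: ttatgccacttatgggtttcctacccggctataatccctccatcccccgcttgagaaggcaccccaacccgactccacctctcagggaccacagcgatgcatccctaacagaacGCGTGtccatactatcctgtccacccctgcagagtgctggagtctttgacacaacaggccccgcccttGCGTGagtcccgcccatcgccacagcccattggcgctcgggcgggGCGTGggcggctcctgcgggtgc
Acod1: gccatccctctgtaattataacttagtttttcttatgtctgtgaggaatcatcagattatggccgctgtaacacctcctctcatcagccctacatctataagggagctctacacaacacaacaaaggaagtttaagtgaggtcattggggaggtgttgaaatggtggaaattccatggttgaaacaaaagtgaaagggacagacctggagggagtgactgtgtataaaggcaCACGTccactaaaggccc
Me1: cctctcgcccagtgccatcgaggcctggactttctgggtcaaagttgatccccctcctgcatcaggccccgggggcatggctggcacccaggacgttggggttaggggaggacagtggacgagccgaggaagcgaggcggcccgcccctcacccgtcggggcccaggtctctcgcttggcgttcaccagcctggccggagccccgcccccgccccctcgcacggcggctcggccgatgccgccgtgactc

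Pgk1 carried 2 matches to ACGTG, Acod1 carried 1, and Pfkp carried 3 matches to GCGTG. The windows shown for Gys1, Gbe1 and Me1 held neither motif, while another Me1 window, at chr9:86687278-86687527 (-), held 1 match to ACGTG. Over the 65 member windows, 69.2% held at least 1 of these motifs, against 38.6% of all 32851 windows in the reference table and 45.0% of the 20120 windows of protein-coding genes. ACGTG alone was in 35.4% of member windows and 16.6% of all windows, and GCGTG in 47.7% and 28.2%. Windows of 1 gene can overlap, as some of Ogdh do, so the same letters can count more than once. By symbol, 33 of 45 had a motif in at least 1 window. No such share was computed for all genes, and the reference windows were not limited to expressed genes. Split by response to OGD, a motif stood in at least 1 window of 8 of 11 enzymes that rose, 5 of 6 that fell and 19 of 26 that did neither. These are counts of letters and not of bound sites.

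Expression is given as deposited, in FPKM (fragments per kilobase of gene length, scaled to depth by the authors with a size factor per library). The gene length counts all annotated exon bases, for example 13401 for Pfkp, 6675 for Pfkl and 3340 for Pfkm. It need not be the length of the mRNA made, which limits comparing levels of different genes and the size of shares within a family. Differences between groups are log2 fold changes on the log2(FPKM + 0.1) scale from limma, which understate the change of genes near the pseudocount. Following the study's thresholds, a gene is said to rise or fall where the unadjusted limma p is under 0.01 and the absolute log2 fold change over 0.5. The Benjamini-Hochberg adjusted p over all 16123 genes is given beside it, and errors are standard errors (SE) of the fit with n = 3 per group.

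With OGD, 12 of the 46 tested enzymes rose (26.1%), where 11.2% of all tested genes rose, and 7 fell (15.2%), where 9.81% of all genes fell. The median log2 fold change was 0.13 over the enzymes and 0.01 over all genes. By branch, 6 of 11 rows of upper glycolysis rose and none fell, both tested glycogen enzymes rose, 3 of the 7 tested pentose phosphate enzymes fell, and 2 of the 11 TCA enzymes fell while none rose.

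When A-485 was added to OGD, 4 enzymes rose (8.70%), against 12.2% of all genes, and 6 fell (13.04%), against 13.4% of all genes. These shares lie near or under those of all genes. With an adjusted p under 0.05 in place of these thresholds, 39.1% of the enzymes were higher and 28.3% lower, against 25.1% and 24.7% of all genes. The median over the enzymes was 0.09, and over all genes 0.01. Both comparisons use the same OGD libraries, so a high or low OGD value moves them in opposite directions. Across the pair of comparisons, Aldoc and Acod1 rose in each, Pfkp and Pcx rose with OGD and fell with A-485, Taldo1 and Idh1 fell with OGD and rose with A-485, and 23 rows passed in neither.

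**Figure D1:**
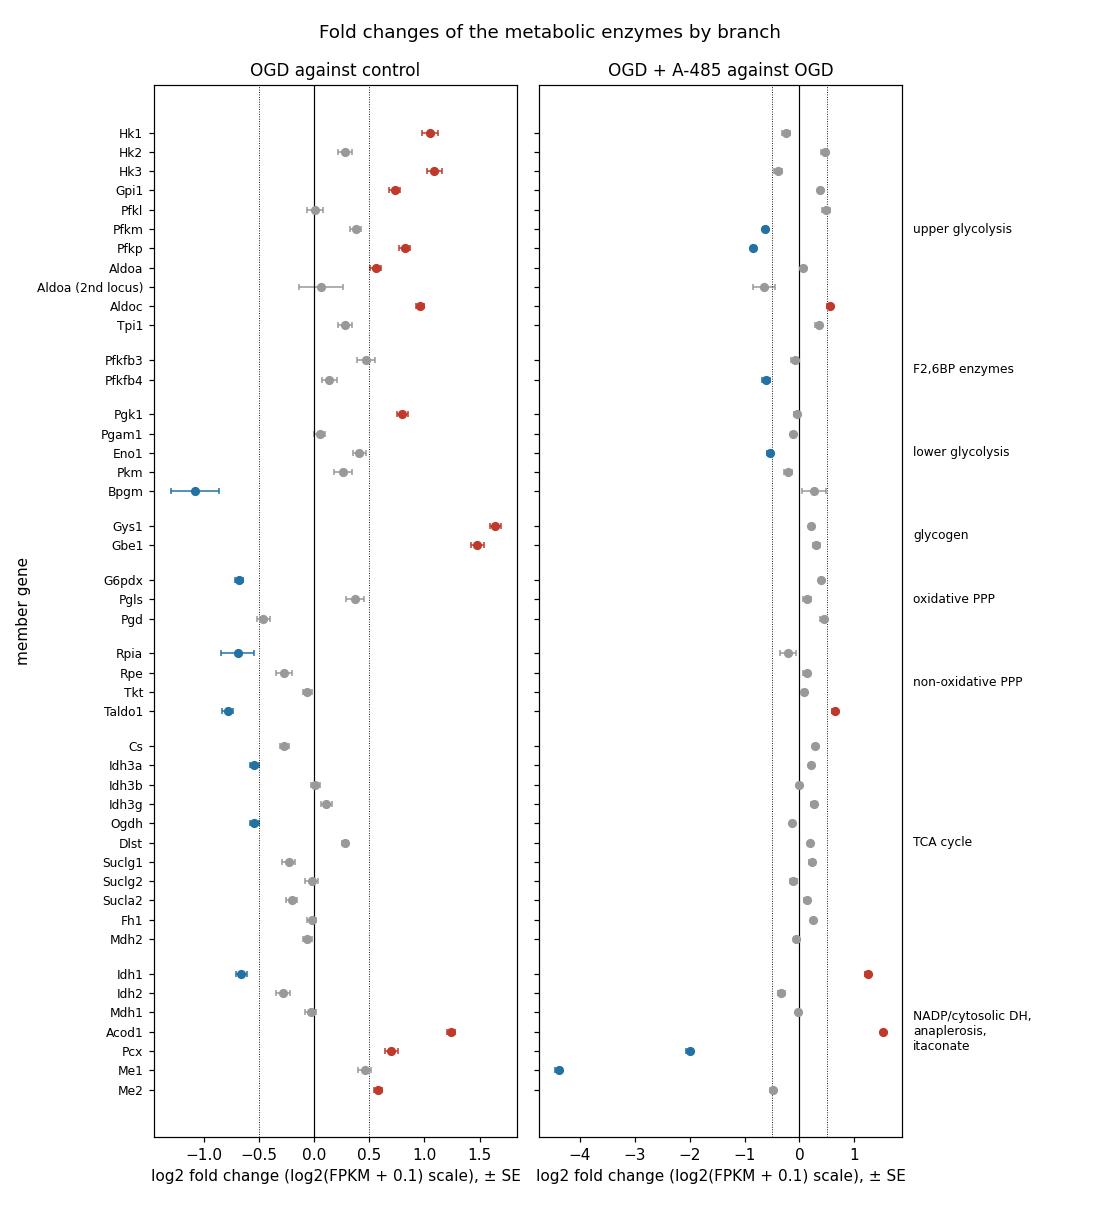
Log2 fold change (x axis, log2(FPKM + 0.1) scale, whiskers 1 SE) of each tested enzyme except Gapdh, whose SE was 1.23, by branch, for OGD against control (left) and OGD + A-485 against OGD (right; the x axis is wider), with dotted lines at -0.5 and 0.5, red for enzymes that rose, blue for those that fell and grey for the rest. Upper glycolysis and glycogen enzymes lie right of 0 on the left panel, and Me1, at -4.39, and Pcx, at -2.00, stand far left on the right panel.

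Upper glycolysis was the branch with the most enzymes raised by OGD. Hexokinases, which trap glucose as glucose 6-phosphate, were measured as 3 isozymes. Hk1, the widely expressed form bound to mitochondria, measured 28.1, 30.5 and 27.6 FPKM in control, 60.0, 56.0 and 63.1 under OGD, and 53.7, 46.5 and 51.7 with A-485 added. All OGD libraries lay well above all control libraries, and those with A-485 lay between. Its log2 fold change was 1.05 ± 0.07 with OGD (2.07-fold, limma adjusted p = 5.53e-06) and -0.24 ± 0.07 with A-485 (limma adjusted p = 0.0169), which is short of the fold threshold.

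Hk3, a hexokinase of myeloid cells and the highest of the 3 in FPKM here, measured 97.0, 98.9 and 89.9 FPKM in control, 197.8, 198.1 and 214.5 under OGD, and 160.6, 141.5 and 163.0 with A-485 added. It rose 2.13-fold with OGD (1.09 ± 0.07, limma adjusted p = 3.83e-06). As for Hk1, the libraries with A-485 were lower than OGD without overlap but short of the fold threshold, at -0.39 ± 0.07. Hk2, the inducible form of muscle and tumor cells, behaved otherwise: 52.6, 55.2 and 52.6 FPKM in control, 66.8, 59.4 and 69.2 under OGD, and 94.0, 85.0 and 89.5 with A-485 added. The 3 groups did not overlap and ascended in that order, with log2 fold changes of 0.28 ± 0.06 and 0.46 ± 0.06, neither past the threshold. The A-485 change of Hk2 passed, at 0.51, when the third OGD library was left out, and against control Hk2 was 1.67-fold higher under OGD + A-485 (0.74 ± 0.06, limma adjusted p = 9.62e-06).

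The hexokinase pool, the sum of the 3, was 177.4 ± 7.23 FPKM (SD, n = 3) in control, 328.3 ± 17.0 under OGD and 295.2 ± 19.4 with A-485 added. Hk2 made up 30.2% ± 0.691 of it in control, 19.8% ± 0.823 under OGD and 30.4% ± 0.862 with A-485 added, while Hk3 went from 53.7% to 62.0% and 52.5%. The shares of Hk2 in OGD did not overlap those of either other group. An exact two-sided permutation test gave p = 0.1 for each of these gaps, the smallest that 3 libraries against 3 can give, and p = 0.8 for Hk2 between OGD + A-485 and control.

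Gpi1, which converts glucose 6-phosphate to fructose 6-phosphate, measured 135.9, 136.2 and 133.5 FPKM in control, 219.5, 219.2 and 236.0 under OGD, and 308.5, 277.0 and 293.9 with A-485 added. Its libraries ascended by group without overlap. The change with OGD was 1.66-fold (0.73 ± 0.05, limma adjusted p = 6.96e-06), and that with A-485 was 0.38 ± 0.05, short of the threshold. Among its 50-base stretches, 15.8% also occur in other genes.

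Phosphofructokinase, which commits sugar to glycolysis, is built from liver (Pfkl), muscle (Pfkm) and platelet (Pfkp) type subunits. Pfkp measured 66.4, 68.7 and 66.7 FPKM in control, 117.9, 116.3 and 121.8 under OGD, and 70.5, 62.9 and 66.1 with A-485 added. OGD stood apart above both other groups, which overlapped each other. Pfkp rose 1.76-fold with OGD (0.82 ± 0.05, limma adjusted p = 2.68e-06) and was 1.78-fold lower when A-485 was added (-0.84 ± 0.05, limma adjusted p = 1.22e-06), while OGD + A-485 differed from control by -0.02 (95% interval -0.12 to 0.08). Its exons share 748 bases, 5.58% of their length, with Pitrm1 on the opposite strand, a gene whose mean went from 84.7 to 61.1 and 46.5 FPKM over the groups, and whether reads were counted by strand is not stated.

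Pfkm measured 30.5, 30.4 and 28.7 FPKM in control, 38.2, 38.4 and 40.1 under OGD, and 25.9, 23.5 and 26.5 with A-485 added. OGD libraries were again the highest and those with A-485 the lowest, without overlap. With OGD the change was 0.38 ± 0.05, short of the threshold, and with A-485 Pfkm fell by 0.62 ± 0.05 (limma adjusted p = 1.47e-05). Pfkl measured 64.98, 68.8 and 62.9 FPKM in control, 67.7, 59.4 and 71.3 under OGD, and 96.7, 86.6 and 92.2 with A-485 added. Its control and OGD libraries overlapped, and those with A-485 lay above both. Its change with A-485, 0.48 ± 0.07 (limma adjusted p = 0.000567), was just short of the fold threshold and passed, at up to 0.53, without the third OGD or the second OGD + A-485 library.

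The shares of the 3 subunits in summed phosphofructokinase FPKM differed between all 3 groups. The size of each share depends on the gene lengths. In control, Pfkp had 11890 to 14482 reads per library on 13401 bases, and Pfkl 5794 to 6799 on 6675 bases. Pfkp was 41.4% ± 0.677 of the summed FPKM in control, 53.1% ± 1.11 under OGD and 36.2% ± 0.381 with A-485 added, whereas Pfkl was 40.3%, 29.5% and 49.89% to 50.09% (lowest to highest library). No library of a group overlapped another group in the share of either subunit (exact two-sided permutation p = 0.1 for each pair of groups, the smallest possible). The summed level was 162.7 ± 4.86 FPKM in control, 223.7 ± 9.61 under OGD and 183.7 ± 10.05 with A-485 added (SD, n = 3).

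**Figure D2:**
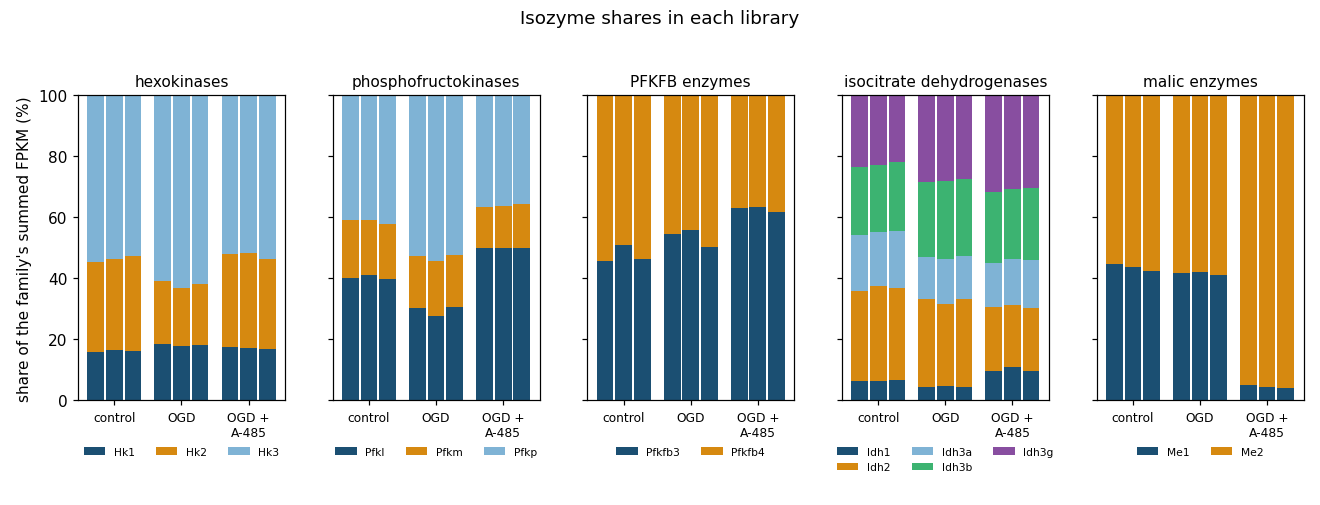
Share (y axis, percent) of each isozyme in the summed FPKM of its family, 1 stacked bar per library with 3 libraries per group, for 5 families. Hk2 shrinks to 19.8% and Pfkp grows to 53.1% of their families in OGD, and Me1 falls to 4.47% of the malic enzymes in OGD + A-485.

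Aldolase splits fructose 1,6-bisphosphate into triose phosphates. Aldoa, the muscle type and by far the main form here, measured 672.0, 673.6 and 672.3 FPKM in control, 975.1, 985.7 and 1014.5 under OGD, and 1025.0, 1008.8 and 1072.6 with A-485 added. OGD and OGD + A-485 overlapped, and both lay above control. Aldoa rose 1.47-fold with OGD (0.56 ± 0.05, limma adjusted p = 2.73e-05), and the A-485 change was 0.06 (95% interval -0.05 to 0.17). The row at the other Aldoa locus held 13 to 27 reads per library and passed in neither comparison, at 0.06 ± 0.20 and -0.64 ± 0.20.

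Aldoc, the brain type, rose in both comparisons. It measured 26.4, 27.5 and 28.8 FPKM in control, 53.5, 53.3 and 54.3 under OGD, and 80.3, 78.3 and 77.7 with A-485 added. The groups were far apart compared with the spread inside each. The rise was 1.95-fold with OGD (0.96 ± 0.04, limma adjusted p = 5.67e-07) and 1.47-fold with A-485 (0.55 ± 0.04, limma adjusted p = 5.1e-06). The A-485 call lies close to the threshold and was lost, at 0.38 to 0.49, with quantile normalization, with scaling to library totals, and after removing the median change of the 50 nearest tested genes on the chromosome. Aldoc stayed a minor form, at 3.94%, 5.14% and 7.07% of aldolase FPKM in the 3 groups.

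Tpi1, which interconverts the triose phosphates, had changes of 0.28 ± 0.06 with OGD and 0.35 ± 0.06 with A-485, both short of the threshold. Against control it was 1.55-fold higher under OGD + A-485 (0.63), a call lost, at 0.19, once the nearest genes' median of 0.44 was removed, and at 0.20 with quantile normalization. Levels of fructose 2,6-bisphosphate, the activator of phosphofructokinase, are set by the PFKFB enzymes. Pfkfb3, which mainly makes it, measured 4.40, 4.82 and 4.37 FPKM in control, 6.37, 6.95 and 5.72 under OGD, and 6.18, 6.10 and 5.71 with A-485 added. All OGD libraries exceeded control, but the change of 0.47 ± 0.08 (limma adjusted p = 0.00131) missed the fold threshold, which it passed, at up to 0.55, without the second control or the third OGD library. With A-485 the change was -0.08 ± 0.08 and the libraries overlapped.

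Pfkfb4, a relative with kinase and phosphatase activity, measured 5.25, 4.62 and 5.03 FPKM in control, 5.29, 5.53 and 5.66 under OGD, and 3.62, 3.52 and 3.54 with A-485 added. Control and OGD lay side by side, and A-485 lay clearly under both. It fell by 0.61 ± 0.07 with A-485 (1.53-fold, limma adjusted p = 6.79e-05). The 50 nearest tested genes had a median of -0.28 in that comparison, and with that removed the change was -0.33 and no longer passed.

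In lower glycolysis, 1 of the 6 tested enzymes rose with OGD and 1 fell. Pgk1, which makes the first ATP of the pathway, was among the most abundant enzymes: 938.4, 921.6 and 910.6 FPKM in control, 1611.5, 1589.6 and 1633.2 under OGD, and 1579.9, 1516.0 and 1615.7 with A-485 added. Control stood alone at the bottom, and OGD with and without A-485 overlapped. Pgk1 rose 1.74-fold with OGD (0.80 ± 0.05, limma adjusted p = 7.34e-06), and the A-485 change was -0.04 (95% interval -0.16 to 0.09). Of its 50-base stretches, 53.9% also occur in other genes, among them the processed copy Pgk1-rs7, which read 4.41 to 6.26 FPKM in control and 9.57 to 10.4 in OGD.

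Eno1, which forms phosphoenolpyruvate, measured 864.0, 878.9 and 856.5 FPKM in control, 1139.4, 1102.0 and 1203.2 under OGD, and 820.4, 745.7 and 798.2 with A-485 added. OGD was highest and OGD + A-485 lowest, without overlap. The OGD change was 0.41 ± 0.06, under the fold threshold, and with A-485 Eno1 fell by 0.54 ± 0.06 (1.46-fold, limma adjusted p = 7.11e-05). Its nearest genes had a median of -0.39 with A-485, and after removing it the change was -0.15. In addition, 26.0% of its 50-base stretches occur elsewhere, including the near copy Eno1b, at 45.5 to 51.2 FPKM in control and 40.9 to 45.0 in OGD + A-485. Eno2, the neuronal enolase, had at most 2 reads in a library.

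Bpgm, which makes the 2,3-bisphosphoglycerate of red cells, measured 1.17, 1.55 and 2.03 FPKM in control, 0.591, 0.856 and 0.614 under OGD, and 0.763, 0.918 and 0.851 with A-485 added. Every control library was above every other library. It fell by 1.08 ± 0.22 with OGD (2.11-fold, limma adjusted p = 0.00373), on 27 to 118 reads per library. Pgam1 and the pyruvate kinase Pkm, with 36.2% and 25.8% of their 50-base stretches in other genes, passed in neither comparison. Pgam1 differed by 0.05 ± 0.05 with OGD and -0.11 ± 0.05 with A-485, and Pkm by 0.26 ± 0.08 and -0.21 ± 0.08.

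Gapdh could not be compared. Its row read 4.11, 46.6 and 62.3 FPKM in control, 91.6, 12.8 and 25.01 under OGD, and 35.1, 9.48 and 107.8 with A-485 added. Libraries of the same group differed more than the groups did, and the SE of its log2 fold change was 1.23. Of its 50-base stretches, 25.1% occur in 223 other genes, and the processed copy Gm7336 read 20.5 to 79.2 FPKM over the libraries; how reads shared between copies were counted is not stated.

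Glycogen enzymes showed the largest rises of the set with OGD. Gys1, the glycogen synthase of muscle and most other tissues, measured 20.2, 20.8 and 19.7 FPKM in control, 59.5, 65.1 and 65.6 under OGD, and 76.1, 71.2 and 73.7 with A-485 added. Each group lay above the previous one without overlap. Gys1 rose 3.12-fold with OGD (1.64 ± 0.05, limma adjusted p = 2.27e-07), and its change ranked 393 from the highest of the 16123 tested genes. The A-485 change was 0.22 ± 0.05, short of the threshold. Its exons share 310 bases, 6.47%, with Ruvbl2 on the opposite strand, which averaged 86.3 FPKM in control and 86.1 in OGD.

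Gbe1, the branching enzyme that completes the glycogen molecule, measured 9.54, 8.69 and 9.03 FPKM in control, 25.3, 26.7 and 24.6 under OGD, and 30.3, 30.6 and 34.0 with A-485 added. It rose 2.79-fold with OGD (1.48 ± 0.06, limma adjusted p = 5.57e-07) and differed by 0.31 ± 0.06 with A-485. OGD lay well above control, and OGD + A-485 a little above OGD, without overlap. Pygl, the liver glycogen phosphorylase, had 0 reads in all 9 libraries, which allows up to 0.0342 FPKM at 3 reads.

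Other enzymes of these routes, from a list of 42 symbols of which 30 were tested, included more glycogen genes. Pgm2, a phosphoglucomutase by name, had means of 45.5 ± 0.824, 105.2 ± 1.34 and 116.2 ± 7.90 FPKM (SD, n = 3) in control, OGD and OGD + A-485, and rose with OGD by 1.21 ± 0.05 (limma adjusted p = 6.43e-07). Ugp2, which makes the UDP-glucose that Gys1 uses, also rose with OGD, by 0.65 ± 0.11. Pygb, the brain glycogen phosphorylase, fell by 0.59 ± 0.06. Gyg, the primer on which glycogen starts, differed by 0.10 ± 0.05 with OGD and rose 1.60 ± 0.05 with A-485, from 16.6 ± 0.711 to 50.4 ± 1.44 FPKM (limma adjusted p = 1.04e-07).

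**Figure D3:**
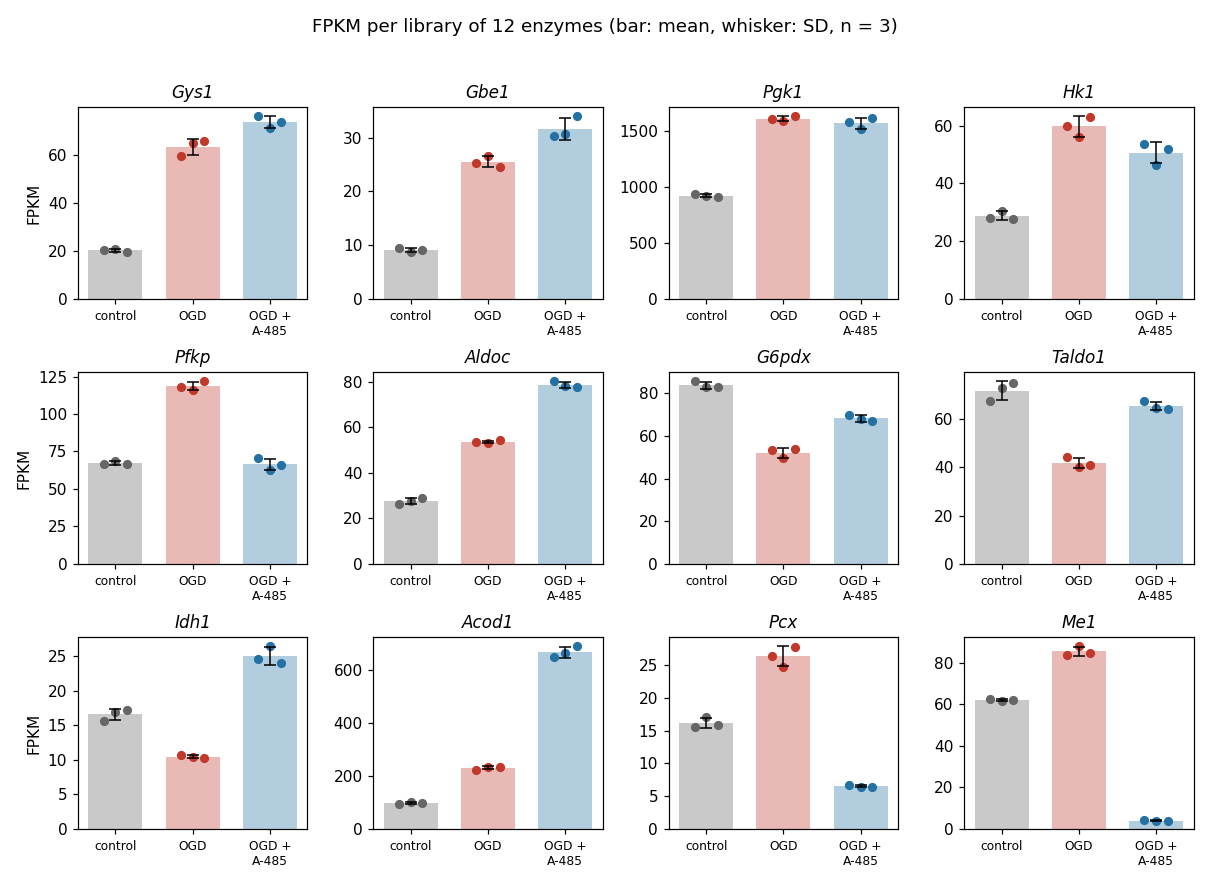
FPKM (y axis, linear, from 0) of 12 enzymes in each library; bars are means, whiskers SD with n = 3, and points single libraries, for control (grey), OGD (red) and OGD + A-485 (blue). Gys1, Gbe1, Pgk1 and Hk1 sit high in both deprived groups, Pfkp and Pcx are high in OGD alone, and Me1 sits at 3.69 to 4.36 in OGD + A-485.

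In the pentose phosphate pathway, none of the 7 tested enzymes rose with OGD and 3 fell. G6pdx, the NADPH-making enzyme that opens the oxidative arm, measured 85.6, 82.9 and 82.7 FPKM in control, 53.3, 49.4 and 53.7 under OGD, and 69.9, 67.9 and 66.8 with A-485 added. OGD was lowest and OGD + A-485 in between, without overlap. G6pdx fell by 0.68 ± 0.04 with OGD (1.61-fold, limma adjusted p = 3.78e-06), and its change with A-485 was 0.39 ± 0.04 (limma adjusted p = 6.03e-05), short of the fold threshold. Of its exon bases, 13.6% are shared with Ikbkg on the opposite strand, which averaged 8.56 FPKM in control and 9.81 with A-485 added. The other NADPH-making step, Pgd, differed by -0.46 ± 0.06 and 0.44 ± 0.06, and Pgls by 0.37 ± 0.08 and 0.14 ± 0.08, so that neither passed. For Pgd the nearest genes had a median of -0.56 with A-485, and with that removed its change was 1.01 and passed.

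Taldo1, the transaldolase of the non-oxidative arm, measured 67.2, 72.8 and 74.7 FPKM in control, 44.2, 40.1 and 40.9 under OGD, and 67.1, 64.4 and 64.2 with A-485 added. OGD lay under both other groups, and the highest library with A-485 lay just under the lowest control. It fell by 0.78 ± 0.05 with OGD (1.71-fold, limma adjusted p = 6.96e-06) and rose by 0.64 ± 0.05 with A-485 (1.56-fold, limma adjusted p = 1.32e-05). The A-485 call was lost, at 0.47 to 0.49, with quantile normalization and after removing the nearest genes' median.

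Rpia, which forms ribose 5-phosphate, measured 4.05, 5.12 and 4.59 FPKM in control, 2.83, 2.47 and 3.10 under OGD, and 2.23, 2.08 and 2.94 with A-485 added. The groups with OGD overlapped and lay under control. Rpia fell by 0.69 ± 0.15 with OGD (1.62-fold, limma adjusted p = 0.00465) and differed by -0.21 ± 0.15 with A-485. Tkt, the transketolase, and Rpe passed in neither comparison, with OGD changes of -0.06 ± 0.04 and -0.27 ± 0.07.

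TCA cycle enzymes moved little. Over the 11 of them, log2 fold changes ranged from -0.54 to 0.28 with OGD (median -0.06) and from -0.13 to 0.28 with A-485 (median 0.20), where none passed. Idh3a, the catalytic subunit of the NAD-dependent isocitrate dehydrogenase, measured 45.8, 46.8 and 48.8 FPKM in control, 32.9, 32.2 and 31.9 under OGD, and 37.4, 35.9 and 39.9 with A-485 added. The groups did not overlap, with OGD lowest. Idh3a fell by 0.54 ± 0.04 with OGD (1.46-fold, limma adjusted p = 2.11e-05). Its change with A-485 was 0.22 ± 0.04, and 0.52, past the threshold, after removing a nearest-gene median of -0.30.

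The partner subunits of Idh3a did not pass. Idh3b measured 55.6, 56.9 and 58.2 FPKM in control, 57.3, 56.0 and 58.5 under OGD, and 58.7, 54.5 and 58.01 with A-485 added, with all groups overlapping. Idh3g measured 59.7, 60.0 and 57.3 in control, 66.5, 61.4 and 63.6 under OGD, and 81.1, 73.8 and 75.9 with A-485 added, ascending without overlap. The changes of Idh3g were 0.11 ± 0.05 and 0.27 ± 0.05.

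Ogdh, the decarboxylating subunit of the 2-oxoglutarate dehydrogenase complex, measured 49.98, 51.5 and 49.2 FPKM in control, 34.4, 34.2 and 34.8 under OGD, and 32.9, 31.3 and 30.5 with A-485 added. Control was highest, and the libraries with A-485 lay slightly under those of OGD. Ogdh fell by 0.54 ± 0.04 with OGD (1.46-fold, limma adjusted p = 7.51e-06), a call lost, at -0.34, once the nearest genes' median of -0.20 was removed. The succinyltransferase subunit of the same complex, Dlst, had the highest OGD value of the branch, 0.28 ± 0.03. Citrate synthase (Cs) differed by -0.27 ± 0.04 with OGD and 0.28 ± 0.04 with A-485, and fumarase (Fh1), Mdh2 and the 3 succinyl-CoA ligase subunits (Suclg1, Suclg2 and Sucla2) also passed in neither.

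The largest changes with A-485 were among the enzymes that feed, drain or bypass the cycle. Me1, the cytosolic malic enzyme, turns malate into pyruvate and makes NADPH. It measured 62.7, 61.7 and 62.3 FPKM in control, 83.9, 87.8 and 84.4 under OGD, and 4.36, 3.90 and 3.69 with A-485 added. Control and OGD were of the same order, and all libraries with A-485 lay far beneath them. Me1 was 21.0-fold lower with A-485 than under OGD alone (-4.39 ± 0.06, limma adjusted p = 1.17e-09), on 205 to 245 reads per library against 4108 to 4570, and its change ranked 26 from the lowest of 16123 tested genes. With OGD its change was 0.46 ± 0.06, short of the threshold. Although 28.3% of the 50-base stretches of Me1 occur in other genes, the copy with the most of them, Gm7049, stayed at or under 0.184 FPKM. Another copy, Gm7329, read 0 to 0.713 FPKM in control, 0.748 to 2.19 in OGD and 0 in OGD + A-485.

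Me2, the mitochondrial malic enzyme, measured 77.5, 79.1 and 84.1 FPKM in control, 116.7, 121.0 and 121.6 under OGD, and 83.97, 85.7 and 85.7 with A-485 added. OGD stood above both other groups, which overlapped. Me2 rose 1.49-fold with OGD (0.58 ± 0.04, limma adjusted p = 6.93e-06). Its A-485 change of -0.49 ± 0.04 was at the edge of the threshold and passed, at down to -0.61, with quantile normalization, with library totals and without the first OGD library. With Me1 at these levels, Me2 made up 56.3% ± 1.11 of malic enzyme FPKM in control, 58.4% ± 0.558 under OGD and 95.5% ± 0.414 with A-485 added. The exact two-sided permutation p was 0.1 for the last step, the smallest possible.

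Pcx, pyruvate carboxylase, refills the cycle with oxaloacetate. It measured 15.5, 17.0 and 15.9 FPKM in control, 26.4, 24.7 and 27.7 under OGD, and 6.69, 6.38 and 6.45 with A-485 added. The 3 groups were widely separated, with OGD on top. Pcx rose 1.62-fold with OGD (0.70 ± 0.06, limma adjusted p = 1.61e-05) and was 3.99-fold lower when A-485 was added (-2.00 ± 0.06, limma adjusted p = 3.79e-08). It ended 2.46-fold under control.

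Acod1 makes itaconate from aconitate in activated macrophages and microglia, and was the enzyme with the largest rise over both steps. It measured 94.5, 101.5 and 99.0 FPKM in control, 224.4, 235.1 and 235.7 under OGD, and 648.4, 666.5 and 689.8 with A-485 added. The groups ascended with wide gaps. Acod1 rose 2.36-fold with OGD (1.24 ± 0.04, limma adjusted p = 3.43e-07), 2.88-fold again with A-485 (1.53 ± 0.04, limma adjusted p = 4.65e-08), and so stood 6.79-fold above control.

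Idh1, the cytosolic NADP-dependent isocitrate dehydrogenase, measured 15.7, 16.9 and 17.2 FPKM in control, 10.7, 10.5 and 10.3 under OGD, and 24.6, 26.4 and 23.98 with A-485 added. OGD was lowest and OGD + A-485 highest, without overlap. Idh1 fell by 0.66 ± 0.05 with OGD (1.58-fold, limma adjusted p = 1.54e-05) and rose 2.37-fold with A-485 (1.25 ± 0.05, limma adjusted p = 3.04e-07). Its mitochondrial counterpart Idh2 measured 74.9, 80.6 and 78.7 FPKM in control, 66.9, 59.1 and 66.9 under OGD, and 53.3, 48.5 and 50.9 with A-485 added. Those libraries descended by group without overlap, at -0.28 ± 0.06 and -0.33 ± 0.06, and the total of -0.62 ± 0.06 between OGD + A-485 and control passed (limma adjusted p = 2.41e-05).

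Within the summed FPKM of the 5 isocitrate dehydrogenase genes, Idh1 was 6.44% ± 0.199 in control, 4.59% ± 0.163 under OGD and 10.1% ± 0.818 with A-485 added, and Idh2 was 30.3%, 28.2% and 20.5%. No group overlapped another in either share (exact two-sided permutation p = 0.1 each, the smallest possible). Mdh1, the cytosolic malate dehydrogenase, differed by -0.03 ± 0.05 and -0.02 ± 0.05.

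Set against control, OGD + A-485 had 13 enzymes higher (28.3%), against 17.0% of all genes, and 6 lower (13.04%), against 16.6% of all genes. Higher were 7 rows of upper glycolysis (Hk1, Hk2, Hk3, Gpi1, Aldoa, Aldoc and Tpi1), Pgk1, Gys1, Gbe1, Pgls, Idh1 and Acod1. Lower were Bpgm, Rpia, Idh2, Ogdh, Pcx and Me1. Of these 19, Pgls had the smallest log2 change, at 0.51 ± 0.08, and its call was lost in 6 alternatives, at 0.39 to 0.48, among them leaving out control library 3 or OGD + A-485 library 3. Bpgm was lost without control library 2 or 3 or without any single OGD + A-485 library, at -0.86 to -0.62, with 1 FPKM as pseudocount, at -0.47, or as minimum mean, at -0.80. Aldoa and Pgk1 were lost with quantile normalization, at 0.41 and 0.49, and Idh1 with library totals, at 0.47. Scaling to library totals moved the median of all genes in this comparison from 0.02 to -0.09 and left 11 enzymes higher and 8 lower, with 2253 genes higher and 3350 lower overall in place of 2747 and 2684. In OGD + A-485 against OGD the split of 4 higher and 6 lower became 3 and 8 with library totals, where all genes went from 1974 higher and 2165 lower to 1694 and 2474. With quantile normalization it became 2 and 7, and that of all genes 1917 and 2177.

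As a check on the cells, the summed FPKM of 11 microglia and macrophage markers was 427.6 to 443.9 in control, 563.6 to 582.0 under OGD and 988.7 to 1009.6 with A-485 added. Of the 10 tested markers, 5 rose with OGD (50%, against 11.2% of all genes) and 7 with A-485 (70%, against 12.2%). The part of this rise in the enzyme results was not tested. Of the markers that set microglia apart, P2ry12 was nearly absent, with means of 0.0621, 0.0103 and 0.244 FPKM, and Tmem119 was low at 1.33 to 1.40. Summed markers of astrocytes, neurons and fibroblasts or pericytes stayed at or under 0.150 FPKM in every library, those of endothelium between 0.498 and 1.53 and of oligodendrocytes between 1.02 and 2.36, with Aqp4, Gja1, Mog, Mag, Cldn5 and Dcn at 0. The mitochondrial share of reads was 1.82% to 2.20% in control, 1.14% to 1.28% under OGD and 1.66% to 2.01% with A-485 added.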

How the data were processed

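RNA of 9 BV2 libraries, 3 per group by the sample labels, was sequenced. According to the study's methods, the authors counted clean reads on genes with featureCounts and computed FPKM from gene length and read count; the processing notes name GRCm38 and mm10, and an aligner is not given in the sources used here. Multiplying the deposited FPKM by gene length returned whole reads for every nonzero value (100%, tolerance 0.02), from which reads on genes per library were summed.

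Genes averaging 0.2 FPKM or more (16123) entered a limma 3.58.1 fit of log2(FPKM + 0.1), run under R 4.3.3 (group means, all 9 libraries, trended prior variance), checked on simulated data. A gene was called at p under 0.01 and absolute log2 fold change over 0.5, as in the study, with Benjamini-Hochberg adjusted p-values over all genes. The study's DESeq2 test was not repeated. Limma-voom on the recovered reads was an alternative, as were other pseudocounts, filters, scalings, a replicate block and each library left out. Shares within families were compared with an exact two-sided permutation test. Libraries of a group differed by 2.80 to 5.73 times the sampling noise (chi-square per degree of freedom), so no library was a copy of another.

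Enzymes given per library are those called in OGD against control or OGD + A-485 against OGD, and members of their isozyme families. The members and lists were chosen with earlier results of these data known. Exon overlaps and 50-base matches used GENCODE M21, where 46 of the 48 rows had the same coordinates. Promoters came from RefSeq. Other steps ran under Python 3.11.15 with pandas 2.3.3, scipy 1.17.1, numpy 2.4.6 and, for plots, matplotlib 3.10.9.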

Additional observations from a re-analysis of the deposited data

How the results depend on the processing

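With OGD and with A-485 against OGD, no enzyme that passed in the reported fit or in an alternative changed direction there; against control, Pgd went from -0.01 to 0.60 and passed with the nearest genes' median removed. A tally covered 58 results, those of enzymes called in the first 2 comparisons and of members of their isozyme families. Of its 1218 comparisons with alternatives, 1170 kept their direction and side of the threshold, 8 lost the call, 28 gained it and 12 changed sign. Other enzymes were not in this tally. Among them, Pgd and the other Aldoa locus passed with A-485, at 1.01 and -0.68, with the nearest genes' median removed. The sign changes were of values near 0 that passed neither way. Pfkl with OGD (0.01) was -0.04 with library totals and -0.05 to 0.09 with 1 library left out. Idh3b with OGD (0.01) was -0.04 with library totals and -0.01 to 0.02 with 1 library left out, and with A-485 (-0.01) it was -0.03 to 0.03 with 1 library left out. Aldoa with A-485 (0.06) was -0.09 with quantile normalization and 0.00 with library totals, and Idh3g with OGD (0.11) was -0.06 with the nearest genes' median removed. Small differences also count with an adjusted p under 0.05 and no limit on the fold. With OGD, 21 enzymes were then higher (45.7%, against 22.5% of all genes) and 13 lower (28.3%, against 22.8%). With A-485 added to OGD, 18 were higher (39.1%, against 25.1%) and 13 lower (28.3%, against 24.7%). In OGD + A-485 against control, 18 were higher (39.1%, against 28.2%) and 12 lower (26.1%, against 28.4%). With quantile normalization, 2 enzymes were higher with A-485 against OGD, Aldoc and Taldo1 being lost; the cause was not tested. Leaving out each library in turn gave 12 to 13 higher and 7 to 8 lower with OGD, 4 to 6 and 6 to 7 with A-485 against OGD, and 12 to 15 and 5 to 6 for OGD + A-485 against control. Libraries of the same number in different groups did not deviate together (mean correlation of deviations -0.002, range -0.046 to 0.039 over 9 pairs). The mean was 0.001 over 18 pairs of different number, which is not independent of the first, as deviations within a group sum to 0. The values thus show no pairing by number, but cannot tell whether libraries were handled in pairs. With the replicate block the counts were 12 higher and 7 lower with OGD, 4 and 6 with A-485, and 13 and 6 against control. Reads limit Bpgm, Rpia and the other Aldoa locus most, and Eno2 and Pygl could not be tested.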

Other observations

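Among the 42 listed enzymes of the same routes outside the set, 30 were tested. With OGD 3 rose (10%, against 11.2% of all genes) and 5 fell (16.7%, against 9.81%), and when A-485 was added 5 rose (16.7%, against 12.2%) and 5 fell (16.7%, against 13.4%). Tigar, a phosphatase that lowers fructose 2,6-bisphosphate and so diverts sugar to the pentose phosphate pathway, averaged 14.1 ± 0.473 FPKM (SD, n = 3) in control, 8.41 ± 0.716 under OGD and 17.8 ± 1.37 with A-485 added. It fell by 0.74 ± 0.08 with OGD (limma adjusted p = 7.04e-05) and rose by 1.08 ± 0.08 with A-485 (limma adjusted p = 5.82e-06), with no overlap between OGD and the other groups. H6pd, the NADPH-making hexose phosphate dehydrogenase of the endoplasmic reticulum, fell by 0.57 ± 0.07 with OGD. Sdhd, a membrane anchor of succinate dehydrogenase, went from 167.0 ± 4.29 to 113.0 ± 1.40 FPKM with OGD, a fall by 0.56 ± 0.03 (limma adjusted p = 3.38e-06), and stood at 155.6 ± 1.42 with A-485, a change of 0.46 ± 0.03 that is short of the threshold.

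Gpd1l and Gpd2 make or use glycerol 3-phosphate, which links glycolysis to lipids and to mitochondrial electron transport, and both fell with A-485. Gpd1l averaged 20.9 ± 0.918, 9.33 ± 0.436 and 6.29 ± 0.395 FPKM in the 3 groups and fell by 1.15 ± 0.06 with OGD and by 0.56 ± 0.06 with A-485. Gpd2, the mitochondrial form, differed by -0.25 ± 0.04 with OGD and fell by 0.59 ± 0.04 with A-485, from 30.2 ± 1.40 to 20.03 ± 0.171 FPKM. Got1, the cytosolic aspartate aminotransferase, and Adpgk, an ADP-dependent glucokinase, fell by 0.52 ± 0.04 and 0.63 ± 0.06 with A-485, and Pfkfb1 by 0.62 ± 0.18 on means of 2.54 and 1.61 FPKM. In the other direction, the mitochondrial phosphoenolpyruvate carboxykinase Pck2 rose by 0.87 ± 0.05 with A-485, from 12.2 ± 0.131 to 22.4 ± 0.723 FPKM, and Pfkfb2 and the low Ogdhl rose by 0.67 ± 0.13 and 1.81 ± 0.18.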
